A study of Populus alba x Populus glandulosa with 12 samples.

Results

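Metallothioneins are small, cysteine-rich proteins that hold copper and zinc through their thiol groups. In plants they are known for buffering these metals, for scavenging reactive oxygen, and for transcripts that are abundant in leaves and become more so as leaves senesce. In Arabidopsis, transcripts of the MT2A and MT3 types are found mainly in leaf mesophyll, those of other types in phloem, and the EC type binds zinc in seeds.

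The account covers 4 of the 34749 gene rows of a leaf RNA-seq table, chosen for their high levels. Potri.001G400100 is paired in the table with Arabidopsis MT3, and Potri.009G030800 and Potri.006G085200 are both paired with MT2A. Potri.001G400200, the next identifier after the MT3 row, has no paired Arabidopsis gene and no description in the table, so 3 of the 4 rows carry a metallothionein description and the fourth is called by its identifier. Another 8 rows carry such a description and were not chosen for their level. Because levels chose the 4 genes, their levels, ranks and shares are given without a test.

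Leaves came from the hybrid poplar Populus alba × P. glandulosa in 3 groups of 4 libraries. One group was line 2 of plants overexpressing (OE) PagSUPa, a C2H2 zinc finger protein, another was line 7 of the same kind, and the third was the nontransgenic control. The promoter of the transgene, the age of the plants, and whether a line is 1 clone were not given in the sources used here. Nothing says whether replicates came from separate plants, so p-values measure only how these samples vary, and that variation may be technical.

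Values are TPM, a transcript's share of its library scaled to a fixed total and adjusted for transcript length. Setting levels, ranks and shares side by side between genes relies on that adjustment, which was not tested. Library totals lay between 999989 and 999996 TPM, and 22710 to 24607 genes reached 1 TPM. TPM keep no depth, so counting error and a detection limit could not be set. Control replicates 1 and 2 stood apart, with median-ratio scaling factors of 1.23 and 1.21, against 0.883 to 1.06 in the other 10 libraries. Results that change without them are named. The leaf label was checked against mesophyll markers (small subunits and activase of Rubisco, light-harvesting proteins): no row of that list was at 0 in all libraries, and the list summed to 44607 to 88884 TPM in OE libraries and 88494 to 102152 TPM in control libraries.

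The MT3 row, Potri.001G400100, was the most abundant transcript of the data. It held 48047, 29845, 30792 and 51945 TPM in OE line 2. It held 29041.5, 17209, 57814 and 29518 TPM in OE line 7. Control leaves held 3971, 5982, 23510.4 and 9647 TPM. It ranked 1st among all genes in all 8 OE libraries and in control replicate 3, while its ranks in the other control libraries were 28, 11 and 6. The groups overlapped through that 1 control library, which exceeded OE line 7 replicate 2 only. The mean was 36776 ± 14035 TPM in OE (SD, n = 8) and 10778 ± 8808 TPM in controls (SD, n = 4), a ratio of means of 3.41. Control libraries varied widely, with an SD of 81.7% of their mean, against 38.2% in OE.

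Potri.001G400200 followed the MT3 row at a lower level. OE line 2 held 11382, 8157, 7865 and 12930.1 TPM. OE line 7 held 6358, 3595, 15118 and 8375 TPM. Control leaves held 849, 1127, 4567 and 2178 TPM. The same libraries were high and low as for the MT3 row, with OE line 7 replicate 3 at the top and control replicate 3 again above OE line 7 replicate 2. The mean was 9222 ± 3717 TPM in OE (SD, n = 8) and 2180.3 ± 1691 TPM in controls (SD, n = 4), a ratio of 4.23. Its rank among all genes was 3 to 22 in OE libraries and 26 to 131 in control libraries.

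The first MT2A row, Potri.009G030800, was the steadiest of the 4. It held 16101, 13155, 12809.6 and 12423 TPM in OE line 2. It held 10184.5, 7829, 14506 and 15315 TPM in OE line 7. Control leaves held 3786, 3571, 5550.5 and 4769 TPM. All 8 OE libraries lay above all 4 control libraries, and the lowest OE value, in line 7 replicate 2, was still above the highest control value, in replicate 3. Means were 12790.5 ± 2724 TPM in OE (SD, n = 8) and 4419 ± 917 TPM in controls (SD, n = 4), a ratio of 2.89. The highest of the 12 values was 4.51-fold the lowest, against 14.6-fold for the MT3 row, 17.8-fold for Potri.001G400200 and 13.6-fold for the other MT2A row.

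That other MT2A row, Potri.006G085200, held 8993, 11252, 7973 and 23286.5 TPM in OE line 2. It held 7803, 5841, 18496 and 7824 TPM in OE line 7. Control leaves held 1713, 2982, 4084 and 4592 TPM. Line 2 replicate 4 and line 7 replicate 3 were far above the other OE libraries, and all 8 OE libraries lay above all 4 control libraries. Means were 11434 ± 6162 TPM in OE (SD, n = 8) and 3342 ± 1277 TPM in controls (SD, n = 4), a ratio of 3.42. Groups of 8 above 4 without overlap in that direction were found for 14.6% of the 24926 genes tested, and nothing is read from the 2 members among them.

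**Figure D1:**
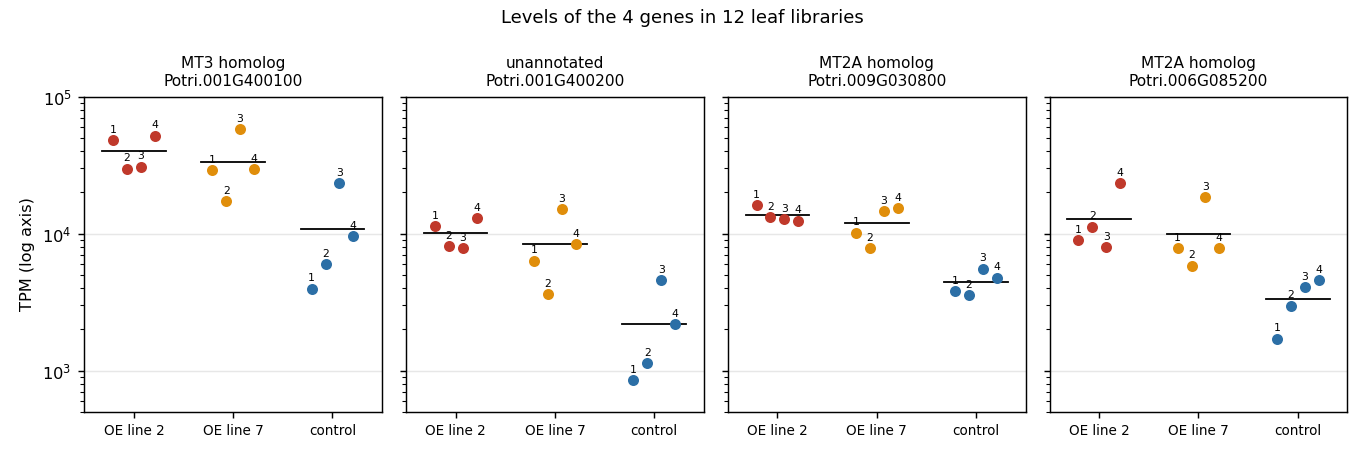
TPM of the 4 genes in each library on a log axis, with OE line 2, OE line 7 and control from left to right. Dots are libraries numbered by replicate and black lines are group means. The MT2A rows show no overlap between OE and control, while control replicate 3 reaches into the OE range of the MT3 row and of Potri.001G400200.

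Together the 4 genes took up 8.45, 6.24, 5.94 and 10.1% of all TPM in OE line 2. They took up 5.34, 3.45, 10.6 and 6.10% in OE line 7. Control libraries gave them 1.03, 1.37, 3.77 and 2.12%. The mean share was 7.02 ± 2.46% in OE (SD, n = 8) and 2.07 ± 1.22% in controls (SD, n = 4), and control replicate 3 was the single control library above the lowest OE share. The MT3 row alone averaged 3.68% of OE libraries and 1.08% of control libraries. Potri.001G400200 averaged 0.922% in OE and 0.218% in controls, Potri.009G030800 1.28% in OE and 0.442% in controls, and Potri.006G085200 1.14% in OE and 0.334% in controls. Lines 2 and 7 had mean shares of 7.67 ± 1.94% and 6.37 ± 3.03% (SD, n = 4 each).

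The make-up of that sum differed less than its size. The MT3 row made 51.9 ± 3.18% of it in OE (SD, n = 8) and 47.5 ± 10.3% in controls (SD, n = 4). Potri.001G400200 made 12.9 ± 1.20% in OE and 9.72 ± 1.86% in controls. Potri.009G030800 made 19.3 ± 4.36% in OE and 25.01 ± 9.13% in controls, and Potri.006G085200 made 15.9 ± 3.88% in OE and 17.7 ± 5.20% in controls. The MT3 row was the highest of the 4 in 12 of 12 libraries. Potri.009G030800 was above Potri.006G085200 in 6 of 8 OE libraries and in 4 of 4 control libraries, and Potri.001G400200 was the lowest in 4 of 8 OE libraries and in 3 of 4 control libraries. In OE, neighbouring means below the MT3 row (Potri.009G030800, Potri.006G085200, Potri.001G400200, from high to low) differed by less than the SD of either neighbour, while the MT3 mean stood further above the next than its SD. In controls the order was the same, and no neighbours differed by more than the larger of their SDs.

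**Figure D2:**
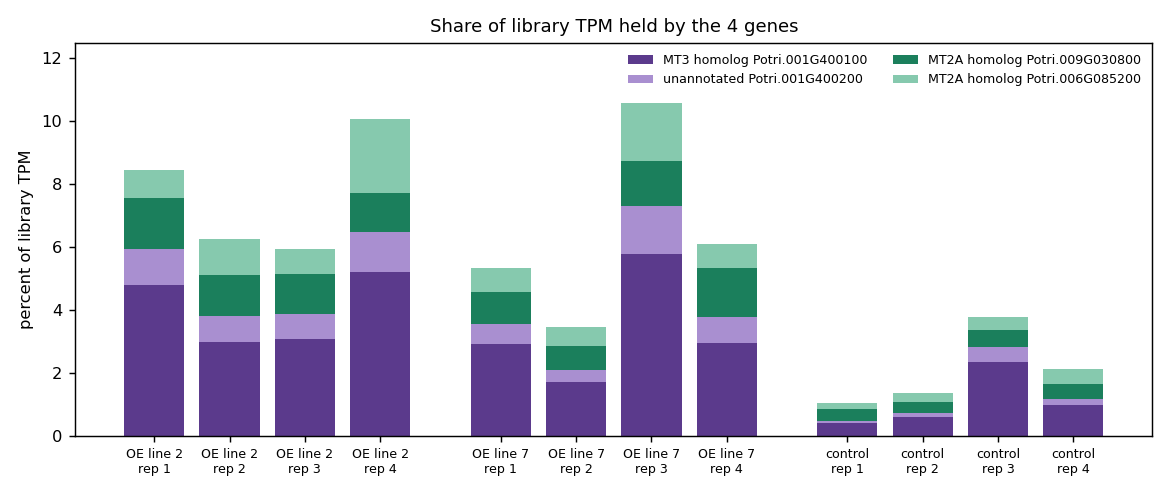
Percent of each library's TPM held by the 4 genes, stacked, for OE line 2, OE line 7 and control from left to right. OE bars reach 3.45 to 10.6% and control bars 1.03 to 3.77%, and the MT3 row is the largest segment in every bar.

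Among all genes, the 4 had ranks 1, 6, 8 and 10 by mean TPM over the 12 libraries. By the OE mean they ranked 1, 3, 4 and 8, and by the control mean 5, 24, 36 and 55. All 4 were among the 10 most abundant genes in 6 of 8 OE libraries and in 0 of 4 control libraries. The other 6 of the 10 highest means belonged to photosynthesis, and all 6 had a lower mean in OE. RBCS1A rows for the small subunit of Rubisco averaged 13520 TPM in OE and 16398 TPM in controls (Potri.017G114600), and 9977 TPM in OE and 12424 TPM in controls (Potri.004G100000). The LHB1B1 rows for a light-harvesting protein averaged 9386 TPM in OE and 18530 TPM in controls (Potri.005G239200), and 10345 TPM in OE and 13534 TPM in controls (Potri.005G239300). Of the 6, Potri.005G239200 alone passed the test described next (log2 fold change -0.99, limma adjusted p = 0.00149), though not with no filter on low values (adjusted p = 0.17). Potri.005G239300 (-0.40, limma adjusted p = 0.093) passed in 3 other fits, with adjusted p down to 0.0196.

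Differences between groups were tested with limma on log2(TPM + 1) over 24926 genes, with Benjamini-Hochberg adjustment over all of them and a threshold of 0.05. The MT3 row was higher in OE by 2.00 on the log2 scale (SE 0.47, 95% interval 0.98 to 3.03, adjusted p = 0.00414). Potri.001G400200 was higher by 2.27 (SE 0.46, interval 1.26 to 3.29, adjusted p = 0.00203). Potri.009G030800 was higher by 1.52 (SE 0.23, interval 1.02 to 2.03, adjusted p = 0.000362), the smallest change with the smallest error. Potri.006G085200 was higher by 1.71 (SE 0.40, interval 0.85 to 2.58, adjusted p = 0.00394). Of all genes tested, 56.1% were called, 22.1% higher in OE and 34% lower. A gene enters a list of abundant transcripts more easily when the OE libraries, 8 of the 12, are high, so nothing is read from the count of 4 of 4. With median-ratio scaling, which moved the median log2 change of all tested genes to 0.02 from -0.13 and the calls to 7514 higher and 6780 lower (5511 and 8469 as deposited), all 4 were still called higher, by 1.70 to 2.45.

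The limit of these calls lies with the controls. Without control replicates 1 and 2, the log2 changes were 1.19 (adjusted p = 0.0957) for the MT3 row, 1.43 (adjusted p = 0.0559) for Potri.001G400200 and 1.25 (adjusted p = 0.0804) for Potri.006G085200 in limma. Only Potri.009G030800 kept its call there, at 1.28 (adjusted p = 0.012). With no filter on low values, the MT3 row also missed the threshold (2.00, adjusted p = 0.102).

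Each line was also compared with the control by limma. In line 2 the log2 changes of the MT3 row, Potri.001G400200, Potri.009G030800 and Potri.006G085200 were 2.18, 2.49, 1.64 and 1.90, with adjusted p of 0.0067, 0.00336, 0.000742 and 0.0058. In line 7 they were 1.83, 2.06, 1.41 and 1.53, with adjusted p of 0.0192, 0.011, 0.00235 and 0.0204. Among all tested genes 51.2% were called in line 2 (18.8% higher, 32.4% lower) and 43.8% in line 7 (18.9% higher, 24.8% lower), and both comparisons share the control libraries. In line 7 the calls of the MT3 row and of Potri.006G085200 did not survive leaving out line 7 replicate 3 or control replicate 1, and that of the MT3 row was also lost without control replicate 2, with adjusted p up to 0.0563 for the MT3 row and up to 0.0608 for Potri.006G085200.

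The difference between lines was tested directly. Line 7 minus line 2 was -0.36 (95% interval -1.54 to 0.82) for the MT3 row, -0.43 (-1.60 to 0.75) for Potri.001G400200, -0.23 (-0.82 to 0.35) for Potri.009G030800 and -0.38 (-1.38 to 0.62) for Potri.006G085200, on the log2 scale. None passed in limma, where 0 of 24926 genes did (0%). An unadjusted limma p under 0.05 was found for 418 genes, a smaller share than the 0.05 that chance alone would give. The intervals still allow line 7 to be lower or higher than line 2.

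Abundant genes as a group changed in both directions. Of 104 genes with a mean of at least 1000 TPM, 29 (27.9%) were higher and 38 (36.5%) lower in OE by limma, beside 22.1% and 34% of all tested genes, and their median log2 change was -0.30, against -0.13 over all tested genes. The 4 members' median was 1.86. Their choice by level favoured genes high in OE, so nothing is read from this median or from the placings below. Of the 104 genes, 14 (13.5%) had a change at least as large as that of Potri.009G030800, the 4 members included, and without the members it was 10 of 100. Over all tested genes, 2.25% had a larger rise than Potri.001G400200, 3.09% than the MT3 row, 4.29% than Potri.006G085200 and 5.33% than Potri.009G030800.

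**Figure D3:**
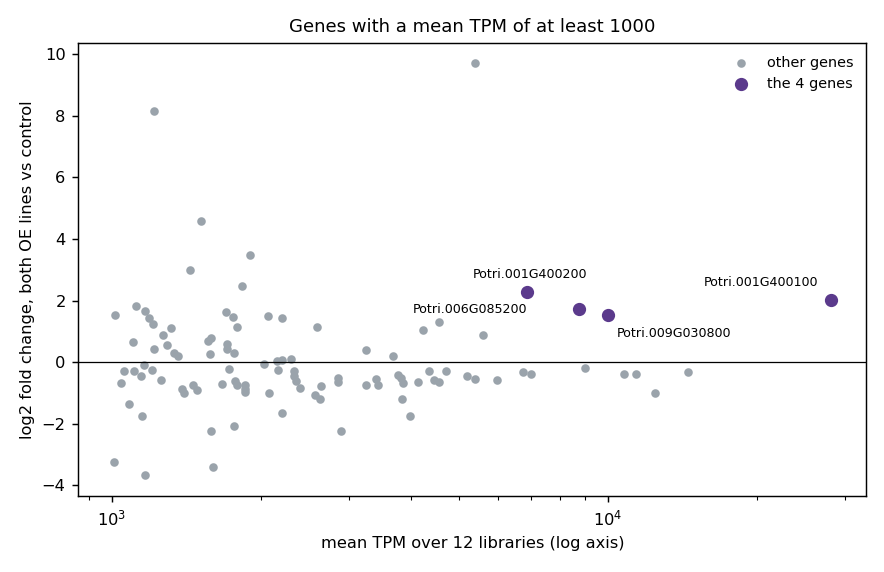
Log2 fold change, OE against control, plotted against mean TPM over 12 libraries (log axis) for the 104 genes with a mean of at least 1000 TPM. The 4 named genes lie between 1.52 and 2.27, above the group's median of -0.30, a placing that their choice by level favoured.

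The MT3 row and Potri.001G400200 kept a nearly fixed ratio. The first held 4.22, 3.66, 3.92 and 4.02 times the TPM of the second in OE line 2. The ratio was 4.57, 4.79, 3.82 and 3.52 in OE line 7. In controls it was 4.68, 5.31, 5.15 and 4.43. The highest of the 12 ratios was 1.51-fold the lowest, although their own levels spanned 14.6-fold and 17.8-fold, and the OE and control ratios overlapped. Salmon, the quantifier named in the submitters' processing notes, divides reads between transcripts of like sequence, and whether these rows share sequence was not tested.

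The MT2A rows did not keep such a ratio. Potri.009G030800 over Potri.006G085200 was 1.79, 1.17, 1.61 and 0.533 in OE line 2. It was 1.31, 1.34, 0.784 and 1.96 in OE line 7. In controls it was 2.21, 1.20, 1.36 and 1.04. The order of the MT2A rows turned in line 2 replicate 4 and line 7 replicate 3, the libraries in which Potri.006G085200 was highest. Over the 12 libraries this ratio spanned 4.14-fold, that of the MT3 row over Potri.009G030800 4.04-fold, and that of the MT3 row over Potri.006G085200 2.87-fold.

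**Figure D4:**
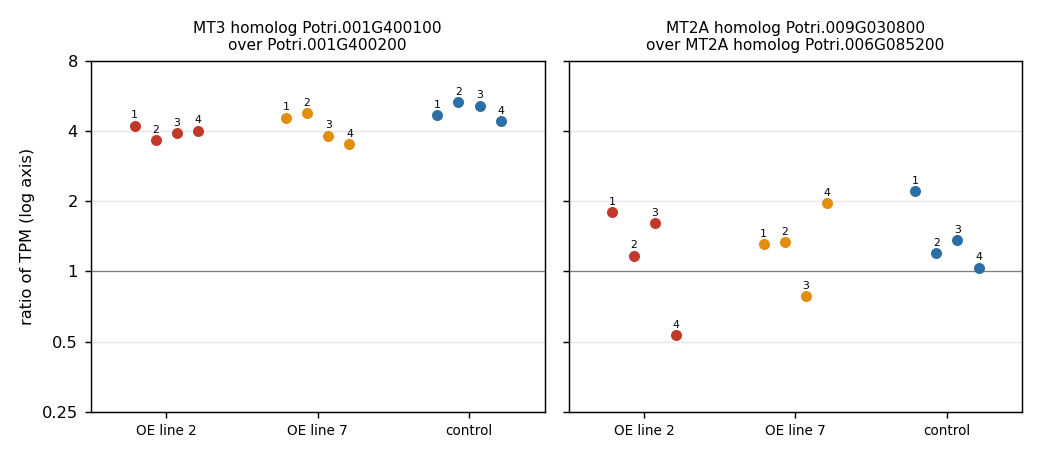
Ratios of TPM between members in each library on a log axis, for OE line 2, OE line 7 and control from left to right. The ratio of the MT3 row to Potri.001G400200 stays between 3.52 and 5.31, while the ratio of the MT2A rows spans 0.533 to 2.21.

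Patterns were compared with all 16450 genes of at least 5 TPM on average, by the root mean square difference of centred log2(TPM + 1) over the 12 libraries, where a smaller value means a more alike pattern. No gene was closer to the MT3 row than Potri.001G400200, at 0.183. After it came Potri.014G134300, a glutaredoxin family gene, at 0.318, Potri.016G143000, of unknown function, at 0.336, and the IBH1 row Potri.002G232500, a bHLH-type protein, at 0.351. For Potri.001G400200 the closest others were the same glutaredoxin gene at 0.260, the same IBH1 row at 0.317 and the glutamine synthetase row GLN1;1 Potri.004G085400 at 0.388.

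The MT2A rows had other neighbours. Closest to Potri.009G030800 were the rows of the protein kinase CIPK5 (Potri.018G019900, 0.144), the receptor-like kinase RLK1 (Potri.001G014700, 0.180) and the homeobox gene BEL1 (Potri.003G131300, 0.196). Closest to Potri.006G085200 were Potri.005G039500, an NAD(P)-binding family gene, at 0.306, the amino acid transporter AAT1 row Potri.012G131300 at 0.319, and Potri.T157200, which has no annotation, at 0.321. The MT2A rows differed by 0.545, and 1346 genes were closer to Potri.009G030800 than its MT2A partner was. The MT3 row was 0.485 from Potri.006G085200, with 21 genes closer to it, and 0.568 from Potri.009G030800, with 92 genes closer. These are descriptions, since all genes share the same 12 libraries and the same total per library.

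The 8 other metallothionein rows had not been chosen by level and had lower means, the highest being 1118 TPM for Potri.011G118900. They had a summed share of 0.209 ± 0.264% of TPM in OE (SD, n = 8) and 0.0412 ± 0.0197% in controls (SD, n = 4). Of 7 tested, 3 were higher and 1 lower in OE by limma, beside 22.1% and 34% of all genes, and their median log2 change was 1.83. Line 2 and line 7 each had 2 higher, beside 18.8% and 18.9% of all genes. Potri.001G040200 passed in neither (limma adjusted p = 0.0698 in line 2 and 0.0893 in line 7). The count of 3 did not hold in every fit: it was 0 without control replicate 1, 1 without control replicate 2 and 0 without both. All 3 that rose were paired with MT2A, and whether they share sequence was not tested. Potri.001G040200, among them, passed the filter on low values only through OE libraries, so nothing is read from the count of 3.

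Potri.019G100001 held 22.5, 99.7, 15.3 and 400.6 TPM in OE line 2. It held 12.8, 11.01, 522 and 408 TPM in OE line 7. Control leaves held 1.62, 1.84, 7.47 and 7.62 TPM. Every OE library was above every control library, with line 2 replicate 4 and line 7 replicates 3 and 4 far above the others, and the log2 change was 3.85 (limma adjusted p = 0.0167). The change was 3.56 without control replicate 1 (adjusted p = 0.0531) and 3.59 without control replicate 2 (adjusted p = 0.0515). Without both, the change of Potri.019G100001 was 3.02 (limma adjusted p = 0.188). Of all tested genes, 14.6% were higher in every OE library than in every control library.

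Potri.001G041300 averaged 26.8 ± 31.6 TPM in OE (SD, n = 8) and 1.55 ± 1.03 TPM in controls (SD, n = 4). Its log2 change was 2.68 (limma adjusted p = 0.0183). The limma adjusted p was 0.0605 without control replicate 1 and 0.188 without control replicates 1 and 2. On control libraries alone, the lowest at 0.364 TPM, Potri.001G041300 would not have passed the filter on low values. Potri.001G040200 averaged 5.62 ± 6.94 TPM in OE and 0.162 ± 0.036 TPM in controls, with a log2 change of 1.84 (limma adjusted p = 0.0419). It reached 1 TPM in 5 libraries, all of them OE, and held at most 0.205 TPM in controls. It thus passed the filter of at least 1 TPM in at least 4 libraries only through OE libraries, and nothing is read from its rise. It missed the threshold in 12 of 22 other fits, including those without any 1 of the 4 control libraries, with adjusted p up to 0.187. For both, line 2 replicate 4 and line 7 replicate 3 were the highest libraries, as they were for the summed share of the 4 abundant genes.

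The row that fell, Potri.004G206400, is described as an EC metallothionein-like protein. It held 1.24, 1.71, 2.71 and 0.520 TPM in OE line 2. It held 2.85, 3.07, 0.135 and 0.294 TPM in OE line 7. Control leaves held 6.86, 4.96, 4.29 and 6.42 TPM. All OE libraries were below all control libraries, and the libraries that were highest for the abundant genes, line 2 replicate 4 and line 7 replicate 3, were among the 3 lowest here. Its log2 change was -1.51 (limma adjusted p = 0.00539), and -1.44 (adjusted p = 0.0651) in a fit without control replicates 1 and 2. Of all tested genes, 19.1% were lower in every OE library than in every control library.

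The second MT3 row, Potri.011G118900, held 469, 270.0, 630.3 and 6188 TPM in OE line 2. It held 667, 456, 3673 and 80.2 TPM in OE line 7. Control leaves held 51.0, 179, 326 and 431 TPM. A pair of OE libraries was far above the rest, one OE library was below 3 of the 4 controls, and the change of 1.83 did not pass in limma (adjusted p = 0.148). Among the MT2A rows, Potri.013G131200 averaged 303 ± 316 TPM in OE and 135 ± 27.6 TPM in controls (log2 change 0.26, limma adjusted p = 0.815), and Potri.001G239650 averaged 16.2 ± 10.98 TPM in OE and 17.7 ± 3.35 TPM in controls (-0.29, limma adjusted p = 0.518). Potri.T132500 did not pass the filter on low values, with 0 to 0.639 TPM in OE libraries, and it was listed at 0 in all control libraries.

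**Figure D5:**
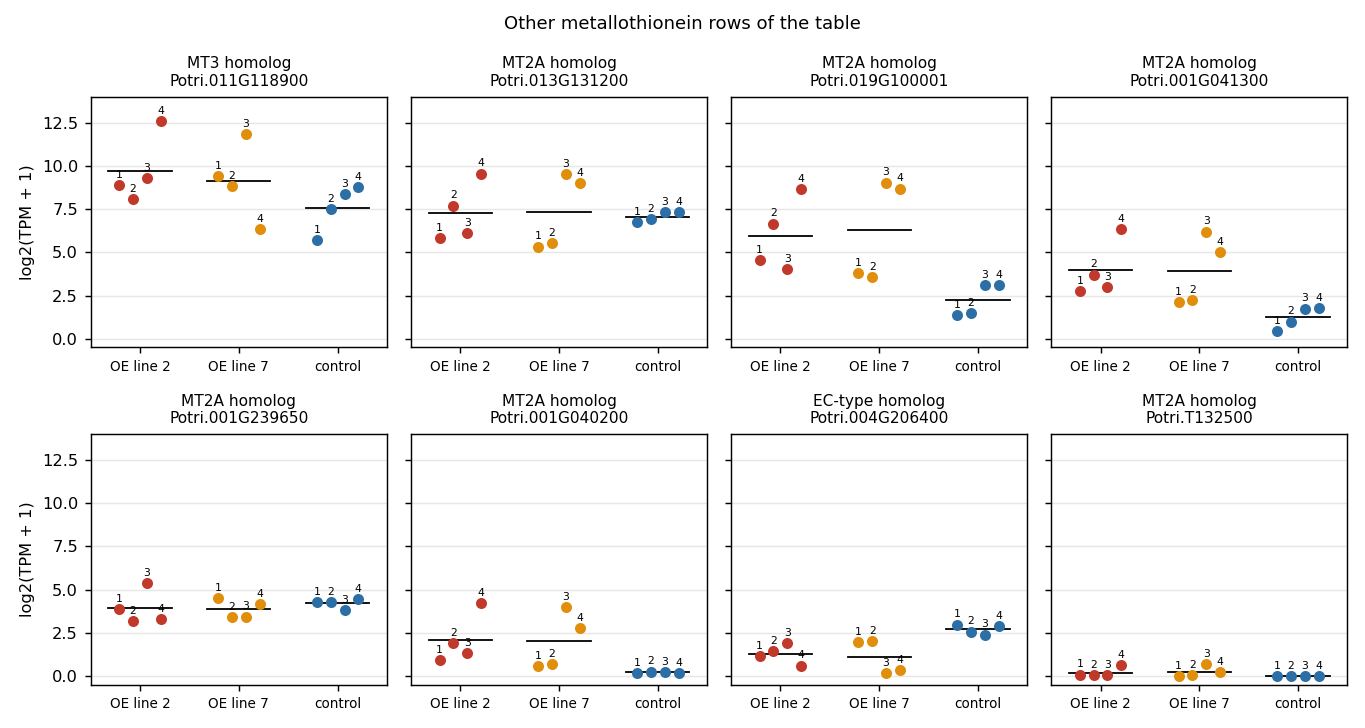
Log2(TPM + 1) of the 8 other metallothionein rows in each library, with OE line 2, OE line 7 and control from left to right, dots numbered by replicate and lines at group means. OE line 2 replicate 4 and OE line 7 replicate 3 lie at the top of most rows, and the EC-type row Potri.004G206400 lies lower in OE.

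Metallothioneins share copper with importers, chaperones and copper enzymes. The shares of all tested genes to read beside each list below are 22.1% higher and 34% lower. Where a second row paired with the same Arabidopsis gene is added, it was chosen after its values were seen. Of 33 tested rows of a copper list, 5 (15.2%) were higher and 9 (27.3%) lower in OE by limma, both below those shares, with a median log2 change of -0.26. The row of COPT1, a copper importer of the plasma membrane, averaged 183 ± 50.6 TPM in OE and 18.6 ± 12.1 TPM in controls, a log2 change of 3.38 (limma adjusted p = 3.38e-05, Potri.009G038800). A copper chaperone row named ATX1 averaged 202 ± 47.8 TPM in OE and 82.9 ± 10.4 TPM in controls, higher by 1.25 (limma adjusted p = 0.000282, Potri.008G023800). The more abundant ATX1 row, Potri.010G236500, averaged 5068 TPM in OE and 2575 TPM in controls (1.04, limma adjusted p = 0.00366). A row of SPL7, known in Arabidopsis as a regulator of the response to low copper, was lower, with 7.96 ± 1.31 TPM in OE and 15.8 ± 3.23 TPM in controls (-0.90, limma adjusted p = 0.000592, Potri.008G197000). The other SPL7 row, Potri.010G026200, averaged 9.99 TPM in OE and 8.91 TPM in controls and did not pass (0.14, limma adjusted p = 0.392). A low row of the Ctr family of copper transporters, Potri.006G093200, rose by 1.19 (limma adjusted p = 4.05e-05). It held at most 0.674 TPM in controls and passed the filter on low values only through OE libraries. Nothing is read from its rise, which is part of the count of 5. The more abundant Ctr row, Potri.009G038700, rose by 0.24 (limma adjusted p = 0.046). All 5 higher rows are named above, but of the 9 lower only the SPL7 row. The other lower rows were paired with the copper/zinc superoxide dismutase CSD2 and the ATPases PAA2, HMA1 and HMA5. The most abundant CSD2 row, Potri.009G163200, averaged 80.1 TPM in OE and 166 TPM in controls (-1.04, limma adjusted p = 0.00443). The count of 9 lower rows was 2 without control replicates 1 and 2.

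The zinc list of transporters and regulators had 4 of 17 tested rows (23.5%) higher, near the share of all genes, and 2 (11.8%) lower, with a median of 0.09. These counts were 1 and 1 without control replicates 1 and 2, and the count of 4 was also 1 without control replicate 1, 2 without control replicate 2 and 1 without control replicate 4, while the count of 2 was 1 without control replicate 1 or 3. The zinc transporter row ZIP2 Potri.009G034600 averaged 0.272 TPM in OE and 5.01 TPM in controls (-2.09, limma adjusted p = 0.000441). The ZIP11 row Potri.001G366200 averaged 2.19 TPM in OE and 0.822 TPM in controls (0.81, limma adjusted p = 0.000611). On OE libraries alone the ZIP2 row would not have passed the filter on low values, nor the ZIP11 row on control libraries alone. Nothing is read from these calls. The ZIP6 row Potri.009G074100 rose by 0.69 (limma adjusted p = 0.0217) and the ZIP10 row Potri.015G117700 fell by 0.39 (limma adjusted p = 0.0227). ZIP6 missed the threshold without control replicate 1 (adjusted p = 0.0516), without control replicate 4 (adjusted p = 0.053) and without control replicates 1 and 2 (adjusted p = 0.102). ZIP10 missed it in 6 fits, among them those without control replicate 1 (adjusted p = 0.083) or 3 (adjusted p = 0.0578), with adjusted p up to 0.175. The second ZIP6 row, Potri.001G279300, did not pass (-0.21, limma adjusted p = 0.239).

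The iron list had 4 of 15 tested rows (26.7%) higher and 4 lower, beside 22.1% and 34% of all genes, with a median of -0.34. Without control replicates 1 and 2, 1 row was lower, Potri.010G184500. Both ferritin rows named FER2, whose product stores iron, fell. Potri.010G184500 averaged 11.3 ± 6.97 TPM in OE and 86.3 ± 15.6 TPM in controls (-3.02, limma adjusted p = 0.000225). Potri.008G072700 averaged 10.8 TPM in OE and 28.0 TPM in controls (-1.36, limma adjusted p = 0.00289). The call of Potri.008G072700 was lost without control replicates 1 and 2 (limma adjusted p = 0.0676). A row of NRAMP3, which exports iron from the vacuole, averaged 157 ± 65.4 TPM in OE and 45.1 ± 4.81 TPM in controls (1.68, limma adjusted p = 0.000911, Potri.007G050600). The second NRAMP3 row, Potri.007G050700, fell by 0.39 (limma adjusted p = 0.0165), with 3.78 TPM in OE and 5.27 TPM in controls. A row of OPT3, a transporter that acts in the phloem, averaged 326 ± 145 TPM in OE and 112 ± 9.04 TPM in controls (1.42, limma adjusted p = 0.00238, Potri.006G006000).

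Glutathione and phytochelatins bind metals beside metallothioneins, and 2 of 12 tested rows of that list (16.7%) were higher and 5 (41.7%) lower, beside 22.1% and 34% of all genes, with a median of -0.21. A glutathione reductase row named GR1, Potri.003G178200, averaged 31.3 TPM in OE and 18.6 TPM in controls (0.72, limma adjusted p = 0.000217), while the other GR1 row, Potri.001G050000, did not pass (-0.08, limma adjusted p = 0.552). The MRP2 row Potri.004G034800, a vacuolar transporter, averaged 6.47 TPM in OE and 14.8 TPM in controls (-1.11, limma adjusted p = 0.000419). A second MRP2 row, Potri.004G034700, fell by 0.70 (limma adjusted p = 0.00363) and the glutathione synthetase row GSH2 Potri.013G026800 by 0.40 (limma adjusted p = 0.00473). Both missed the threshold without control replicates 1 and 2 (limma adjusted p = 0.0503 for Potri.004G034700 and 0.0704 for GSH2). The 5 lower rows became 1 without control replicates 1 and 2, and the 2 higher became 1 without control replicate 3. Of 14 tested rows for removal of hydrogen peroxide and superoxide, 4 (28.6%) were higher and 1 (7.14%) lower, beside the same shares of all genes, with a median of 0.14. The ascorbate peroxidase row APX2 Potri.016G084800 averaged 250 TPM in OE and 104 TPM in controls (1.23, limma adjusted p = 0.000232), and the thylakoid TAPX row Potri.005G179200 averaged 20.7 TPM in OE and 55.5 TPM in controls (-1.42, limma adjusted p = 0.00272), while the other TAPX row, Potri.002G081900, did not pass (0.12, limma adjusted p = 0.485). The superoxide dismutase row MSD1 Potri.013G092600 rose by 0.95 (limma adjusted p = 0.000103) and the ascorbate-regenerating MDAR1 row Potri.006G114800 by 0.61 (limma adjusted p = 0.000612). The 1 lower row became 2 without line 2 replicate 3 and 0 without control replicates 1 and 2. In the latter fit, TAPX Potri.005G179200 missed the threshold (limma adjusted p = 0.0653).

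Metallothioneins are counted among senescence-associated genes, and a senescence list had 14 of 32 tested rows (43.8%) higher and 8 (25%) lower in OE by limma, beside 22.1% and 34% of all tested genes, with a median of 0.61. Without control replicates 1 and 2 the counts were 11 and 6. A row of SAG14, a blue copper-binding protein also named BCB, averaged 25.1 ± 7.31 TPM in OE and 0.265 ± 0.25 TPM in controls (4.34, limma adjusted p = 3.66e-07, Potri.001G192100). The most abundant SAG14 row, Potri.006G067200, fell, with 32.7 TPM in OE and 77.6 TPM in controls (-1.24, limma adjusted p = 0.000278). A row of GLN1;1, a cytosolic glutamine synthetase that reassimilates nitrogen, averaged 166 ± 32.7 TPM in OE and 43.3 ± 7.38 TPM in controls (1.90, limma adjusted p = 1.27e-05, Potri.007G069600). The more abundant GLN1;1 row, Potri.004G085400, averaged 2495 TPM in OE and 491 TPM in controls (2.46, limma adjusted p = 0.000284). Rows paired with SAG101 moved both ways. Potri.T004600 rose by 1.84 (limma adjusted p = 2.13e-05), Potri.T004800 by 1.69 (limma adjusted p = 4.27e-05) and Potri.009G086100 by 1.27 (limma adjusted p = 0.00242). Potri.T117300 fell by 0.67 (limma adjusted p = 0.00154) and Potri.001G290600 by 0.60 (limma adjusted p = 0.00327). In controls Potri.T004600, Potri.T004800 and the SAG14 row Potri.001G192100 held at most 0.537, 0.518 and 0.636 TPM. They passed the filter of at least 1 TPM in at least 4 libraries only through OE libraries. Nothing is read from their rises, which are part of the count of 14. The 8 rows paired with SAG12, a protease gene used in Arabidopsis as a marker of developmental senescence, were at most 0.332 TPM in every library. None of these lists holds any of the 4 abundant genes, and no list test was run.

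Markers of leaf cell types also moved between the groups in which the 4 genes differed. Of 11 tested mesophyll marker rows, 1 (9.09%) was higher and 3 (27.3%) lower by limma, with a median of -0.38, beside 22.1% and 34% of all tested genes. All other marker lists had more rows lower than higher: phloem 0 higher and 16 lower of 20 (80% lower, summed 117 to 457 TPM in OE and 434 to 818 TPM in controls), guard cells 0 and 4 of 7 (57.1% lower, 77.0 to 106 TPM in OE and 130 to 179 TPM in controls), epidermis 0 and 2 of 4 (50% lower, 205 to 650 TPM in OE and 658 to 865 TPM in controls), and xylem 2 and 9 of 12 (75% lower, 13.6 to 80.4 TPM in OE and 122 to 223 TPM in controls). No row of these lists was at 0 in all libraries. The 16 lower phloem rows became 6 without control replicate 2 and 4 without control replicates 1 and 2, the higher xylem count became 1 without any 1 of 9 libraries, and the higher mesophyll count became 0 without control replicate 1, 3 or 4. By line, 16 phloem rows were lower in line 2 and 9 in line 7 by limma, beside 32.4% and 24.8% of all tested genes. In bulk leaves, fewer cells of a type and less RNA per cell cannot be told apart, and the part of these markers in the metallothionein levels was not tested.

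The libraries with the highest summed share of the 4 genes, line 2 replicate 4 and line 7 replicate 3, had the lowest summed mesophyll markers, 44607 and 58490 TPM, and the lowest summed phloem markers, 142 and 117 TPM. Without both, the log2 changes kept their calls in OE against control by limma, and that of the MT3 row in line 7 missed the threshold (1.52, adjusted p = 0.0534).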

How the data were processed

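The authors deposited 1 table of TPM for 34749 genes in 12 leaf libraries. Per the submitters' processing notes, cutadapt, FastQC and Salmon were used, and their versions, settings, genome build and annotation were not given in the sources used here. Per the labels' protocols, cDNA was primed with oligo(dT) and amplified, which can favour abundant polyadenylated transcripts. Gene names are those of the Arabidopsis loci that the table pairs with 31436 rows.

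Shares, ranks and ratios were computed from the TPM as deposited. Groups were compared with limma 3.58.1 (R 4.3.3; lmFit, eBayes with trend) on log2(TPM + 1), which understates changes of low genes, over 24926 genes with at least 1 TPM in at least 4 libraries. All 3 groups were fitted together, p-values are two-sided, and adjustment was by Benjamini-Hochberg at a threshold of 0.05. The code was tested on simulated data. No 2 libraries were identical.

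The 4 genes, the lists and the naming rule were chosen with earlier results of these data known. The rule named every metallothionein row, the 3 genes most alike each member, up to 4 genes with the smallest p per list, and the 5 highest means. List membership followed the paired Arabidopsis locus. Alternatives changed the pseudocount, filter, scaling, block, trend and libraries.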

Additional observations from a re-analysis of the deposited data

Results flagged for a closer look

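In 7 of 44 groups of 4 libraries examined, 1 library lay far from the rest. The gap to its nearest neighbour, divided by the range of the group, was above 0.829. Chance gives this in about 5% of groups when values are normally distributed. Raw TPM need not follow that distribution, so the 5% may not hold here. All 7 were the highest of their group. The MT2A row Potri.006G085200 held 18496 TPM in OE line 7 replicate 3, the library in which that line's share of the 4 abundant genes was also highest. The second MT3 row, Potri.011G118900, held 6188 TPM in OE line 2 replicate 4 and 3673 TPM in OE line 7 replicate 3. In OE line 2 replicate 4, Potri.001G041300 held 79.4 TPM, Potri.001G040200 held 17.8 TPM and Potri.T132500 held 0.534 TPM. Potri.001G239650 held 40.7 TPM in OE line 2 replicate 3. The groups share libraries, so these 7 are not independent.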

How the results depend on the processing

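For OE against control, the 4 abundant genes kept direction and call under other pseudocounts, scalings, no trend, a mean of at least 5 TPM and every single library left out, where the log2 changes were 1.64 to 2.49 (MT3 row), 1.93 to 2.73 (Potri.001G400200), 1.43 to 1.64 (Potri.009G030800) and 1.43 to 1.90 (Potri.006G085200). With no filter on low values, calls were lost by limma for the MT3 row in OE (2.00, adjusted p = 0.102), line 2 (2.18, adjusted p = 0.128) and line 7 (1.83, adjusted p = 0.21), and in line 7 for Potri.006G085200 (1.53, adjusted p = 0.0812) and Potri.009G030800 (1.41, adjusted p = 0.0777). The cause was not tested. Without control replicates 1 and 2, values past the threshold before but not after were 1.19, 1.37 and 1.01 for the MT3 row in OE, line 2 and line 7, 1.43, 1.64 and 1.22 for Potri.001G400200, and 1.25, 1.43 and 1.06 for Potri.006G085200, with adjusted p of 0.0506 to 0.202, in fits with fewer control samples. Leaving out 1 library gave 1.46 to 2.31 for the MT3 row and 1.18 to 1.73 for Potri.006G085200 in line 7. Leaving out line 2 replicate 4 and line 7 replicate 3, chosen after seeing the data, gave 1.52 for the MT3 row in line 7 (adjusted p = 0.0534). The low MT2A row Potri.013G131200 (0.26) turned to -0.12 without line 2 replicate 4, -0.11 without line 7 replicate 3, -0.02 without line 7 replicate 4 and -0.48 without the first 2 of these (-0.12 to 0.59 without 1 library). Genes past the threshold numbered 13980 in OE, 12756 in line 2 and 10910 in line 7, against 9019, 8240 and 7087 among genes of at least 5 TPM on average (fewer tested), and 7430, 6885 and 5013 without control replicates 1 and 2. A replicate block gave 13745 calls in OE and changed no call of the 4 genes. The numbers were not taken to pair the libraries, as the labels give them no meaning. Same-numbered pairs deviated together more often than others. Of them, 9 of 12 had a correlation of deviations over 0.1 (range -0.47 to 0.41), against 9 of 36 pairs with different numbers. Of the 12 libraries, 5 correlated best with their own number. Whether the numbers mark shared handling was not tested. The 8 lower senescence rows became 5 with median-ratio scaling. The added leave-out changed 3 list counts: lower zinc rows to 1, higher glutathione rows to 1 and lower scavenging rows to 2. A fit of only the groups compared is the same fit for OE against control and gave no separate value. Depth is unknown in TPM.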
